A study of Mus musculus with 6 samples.

Results

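The 10 genes described here, *Lgr5*, *Ascl2*, *Smoc2*, *Olfm4*, *Tnfrsf19*, *Prom1*, *Msi1*, *Cdca7*, *Sp5* and *Rgmb*, are markers of the stem cells at the base of intestinal crypts. They were chosen by name, as genes known from that cell type, and are 10 of the 34866 genes in the deposited table. RNA was measured in excised intestinal adenomas of C57BL/6J mice aged 100 to 120 days, with 3 libraries from Apc1322T/+ mice and 3 from ApcMin/+ mice. Both groups carry a germline *Apc* truncation on 1 allele and lose the function of the other in the adenoma. The Apc1322T truncation is the longer and keeps sites that bind β-catenin, whereas the ApcMin product lacks them. No normal epithelium and no adenoma with intact *Apc* was part of the comparison, so each value sets 1 kind of adenoma against the other. A library typically held pooled RNA extractions from a single mouse, and the tissue was excised whole, so it includes stroma.

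Crypt base columnar cells divide to renew the intestinal epithelium and depend on Wnt signals from neighbouring cells. Wnt ligands stabilise β-catenin, which co-activates target genes with TCF/LEF factors, and R-spondins strengthen the signal through Lgr receptors. *Apc* encodes a scaffold of the complex that destroys β-catenin, and its loss in adenomas activates these targets without a ligand. Several of the 10 genes are targets of this pathway, while *Olfm4* is a stem cell marker in the intestine that responds to Notch signals.

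Upstream sequences of a few of these genes are shown because the pathway altered in both adenomas acts through TCF/LEF factors. RefSeq promoter windows on GRCm38.p6 matched 7 of the 10 genes, with 11 windows in all for their annotated starts. The 250 bases before each start were searched on both strands for CTTTGAA or CTTTGTA and for CTTTGAT or CTTTGTT, letters that TCF/LEF factors favour. A match was present in 2 of the 11 windows, against 14.8% of 32851 windows of the same length. *Sp5* had 2 matches, 222 and 104 bases before its start, and the window of an alternative start of *Tnfrsf19* had 1 match, 202 bases before it. *Olfm4* and *Ascl2* are shown beside them as a Notch-responsive marker and a fate-determining factor of the same cells, and held no match to these letters in their windows. Each sequence is written 5′ to 3′ in the direction of transcription, and capitals mark the matches.
Sp5 (chr2:70474673-70474922, + strand): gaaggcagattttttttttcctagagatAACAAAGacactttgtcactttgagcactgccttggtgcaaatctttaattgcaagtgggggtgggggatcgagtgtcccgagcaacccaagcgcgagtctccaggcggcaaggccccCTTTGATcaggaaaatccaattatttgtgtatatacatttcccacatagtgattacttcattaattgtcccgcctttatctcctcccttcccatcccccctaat
Tnfrsf19, alternative start (chr14:61037988-61038237, - strand): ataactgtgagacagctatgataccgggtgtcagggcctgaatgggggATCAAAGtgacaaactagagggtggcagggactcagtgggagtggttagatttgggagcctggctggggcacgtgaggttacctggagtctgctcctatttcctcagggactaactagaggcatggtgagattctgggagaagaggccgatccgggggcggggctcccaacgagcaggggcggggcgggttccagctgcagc
Olfm4 (chr14:80000052-80000301, + strand): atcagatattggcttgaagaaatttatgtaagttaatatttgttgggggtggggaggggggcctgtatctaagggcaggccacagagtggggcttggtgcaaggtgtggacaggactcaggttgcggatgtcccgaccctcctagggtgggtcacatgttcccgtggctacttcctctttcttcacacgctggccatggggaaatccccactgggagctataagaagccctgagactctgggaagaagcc
Ascl2 (chr7:142969265-142969514, - strand): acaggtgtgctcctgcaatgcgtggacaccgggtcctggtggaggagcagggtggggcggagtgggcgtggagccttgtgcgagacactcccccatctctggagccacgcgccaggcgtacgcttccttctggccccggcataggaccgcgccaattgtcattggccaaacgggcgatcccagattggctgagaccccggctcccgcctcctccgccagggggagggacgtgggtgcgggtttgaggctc

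The libraries held between 23132461 and 33518324 estimated counts, and all 10 genes passed the filter on low counts, with between 348 and 34662 counts in each library. Levels are given as log2 CPM, the log2 of counts scaled to CPM, a share of the library total, after TMM scaling between libraries. A log2 fold change is ApcMin over Apc1322T, so that a positive value is higher in ApcMin adenomas. *Apc* itself was at 6.42, 6.41 and 6.47 log2 CPM in Apc1322T adenomas and at 6.82, 6.80 and 6.97 in ApcMin adenomas. Its log2 fold change was 0.43 (SE 0.08, adjusted p = 0.257 with edgeR and 0.00936 with DESeq2), and the level of a transcript from truncated alleles does not check the genotype labels. Apc1322T replicate 1 stood apart from its group. It was at 9.51 log2 CPM in the mean of the enterocyte markers, against 10.91 and 11.02 in Apc1322T replicates 2 and 3. ApcMin replicate 3 was the lowest library for these markers, at 8.50, against 9.43 and 10.29 in ApcMin replicates 1 and 2. For the lists of other genes, Apc1322T replicate 1 was the only library left out.

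The stem cell genes were expressed in every adenoma library, and for 8 of the 10 the 95% interval of the difference between the 2 kinds of adenoma included 0. *Lgr5* and *Olfm4* had the largest differences, in opposite directions. By the fitted values *Lgr5* in ApcMin adenomas was at 0.667 times its level in Apc1322T adenomas and *Olfm4* at 1.83 times, and neither reached the study's threshold, a Benjamini-Hochberg adjusted p under 0.01. None of the 10 genes passed it in edgeR, where the share of all 16536 tested genes that passed was 0%. At an unadjusted p under 0.05 there were 2 of the 10 genes, *Lgr5* and *Olfm4*, against 15.1% of all tested genes. With the DESeq2 Wald test, the study's tool, 0 of the 10 genes were at an adjusted p under 0.01, against 1.11% of 17503 genes.

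**Figure D1:**
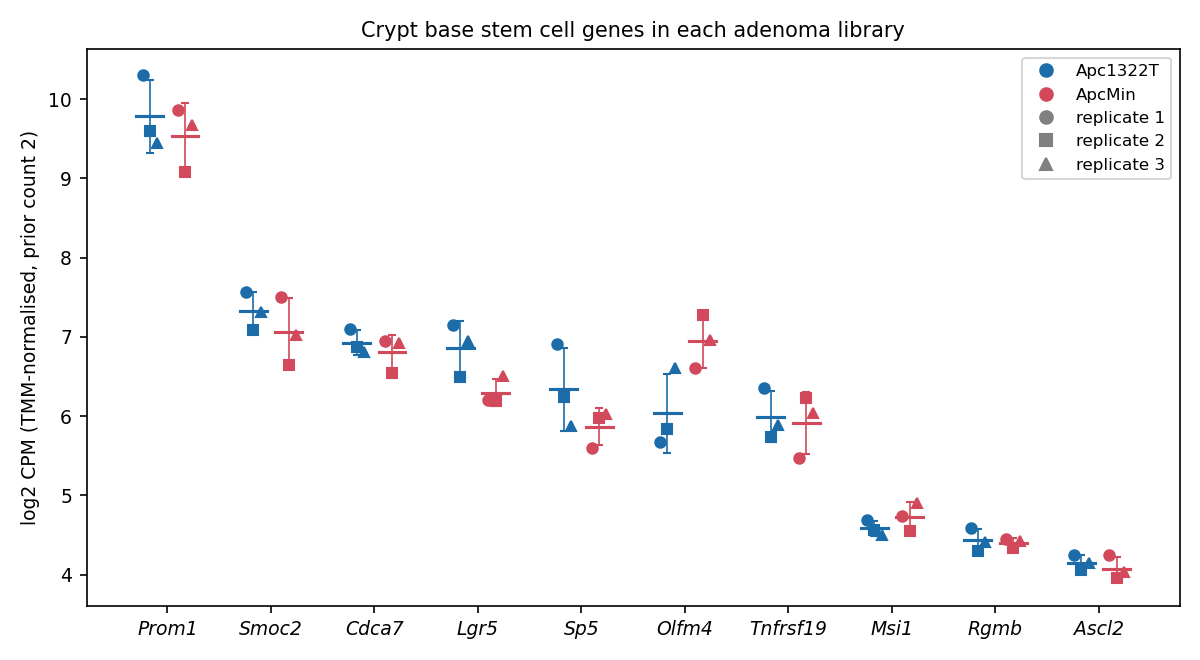
Level of each stem cell gene in log2 CPM (vertical axis) in the 3 Apc1322T (blue) and 3 ApcMin (red) adenoma libraries, with bars for the mean and whiskers for the SD, and a symbol for each replicate number. The groups overlap for all 10 genes at this scaling, and the separation is widest for *Lgr5* (means 6.86 and 6.30) and *Olfm4* (means 6.04 and 6.95).

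*Lgr5* encodes a receptor for R-spondins and is the defining marker of crypt base columnar cells (ENSMUSG00000020140, GRCm38 chromosome 10, 115450311 to 115587780, minus strand). Its log2 CPM was 7.15, 6.49 and 6.95 in Apc1322T replicates 1 to 3 and 6.20, 6.20 and 6.50 in ApcMin replicates 1 to 3. Apc1322T replicates 1 and 3 lay above all ApcMin libraries, and Apc1322T replicate 2 was level with the highest of them, below it by 0.00795. The log2 fold change was -0.58 (SE 0.18, 95% interval -1.02 to -0.15, unadjusted p = 0.0157 and adjusted p = 0.286 by the quasi-likelihood test of edgeR). An exact permutation test over the libraries gave p = 0.20 (two-sided), where 3 libraries against 3 cannot go below 0.10. The DESeq2 log2 fold change was -0.60, with an adjusted p of 0.0840. The value for *Lgr5* was -0.43 without Apc1322T replicate 1 and -0.75 without Apc1322T replicate 2, the range over single libraries left out.

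Among the other receptors of this group the groups overlapped widely. *Tnfrsf19*, which encodes the receptor Troy (chromosome 14, 60963875 to 61046490, minus strand), was at 6.36, 5.74 and 5.88 log2 CPM in Apc1322T and at 5.47, 6.23 and 6.04 in ApcMin adenomas. The highest and the lowest library of *Tnfrsf19* were replicate 1 of Apc1322T and replicate 1 of ApcMin. Its log2 fold change was -0.07 (SE 0.24, interval -0.65 to 0.51, adjusted p = 0.902 with edgeR), and 0.14 without Apc1322T replicate 1. *Rgmb*, a co-receptor for bone morphogenetic proteins (chromosome 17, 15803188 to 15831039, minus strand), was at 4.59, 4.30 and 4.42 in Apc1322T and at 4.45, 4.34 and 4.42 in ApcMin adenomas. All 6 libraries of *Rgmb* lay within a narrow range. Its log2 fold change was -0.04 (SE 0.11, interval -0.30 to 0.22, adjusted p = 0.883 with edgeR).

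*Olfm4* encodes a secreted glycoprotein of crypt base cells (ENSMUSG00000022026, chromosome 14, 79984081 to 80023139, plus strand). Its log2 CPM was 5.67, 5.84 and 6.61 in Apc1322T replicates 1 to 3 and 6.61, 7.27 and 6.96 in ApcMin replicates 1 to 3. Apc1322T replicate 3 and ApcMin replicate 1 met at the same level, crossing by 0.000689, and the other libraries kept apart by genotype. A log2 fold change of 0.88 was estimated (SE 0.29, interval 0.18 to 1.58, unadjusted p = 0.0219 and adjusted p = 0.288 with edgeR). The exact permutation p was 0.20 (two-sided), and DESeq2 gave a log2 fold change of 0.86 with an adjusted p of 0.0721. Leaving out single libraries gave values of *Olfm4* between 0.70 and 1.22. *Smoc2*, a secreted matricellular protein (chromosome 17, 14279506 to 14404790, plus strand), was at 7.57, 7.09 and 7.32 in Apc1322T and at 7.50, 6.65 and 7.03 in ApcMin adenomas. ApcMin replicate 1 reached the Apc1322T levels and ApcMin replicate 2 was the lowest library. The log2 fold change of *Smoc2* was -0.24 (SE 0.23, interval -0.80 to 0.32, adjusted p = 0.629 with edgeR), between -0.49 without ApcMin replicate 1 and -0.06 without ApcMin replicate 2.

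Of the genes with a role in transcription, *Ascl2* encodes a transcription factor that specifies the stem cell fate (chromosome 7, 142966829 to 142969264, minus strand). Its log2 CPM was 4.24, 4.05 and 4.15 in Apc1322T and 4.24, 3.96 and 4.03 in ApcMin adenomas, a range shared by both groups. Its log2 fold change was -0.07 (SE 0.12, interval -0.36 to 0.22, adjusted p = 0.794 with edgeR). *Sp5*, a zinc finger factor and a target of Wnt signalling (chromosome 2, 70474923 to 70477729, plus strand), was at 6.91, 6.24 and 5.87 in Apc1322T and at 5.60, 5.97 and 6.03 in ApcMin adenomas. Apc1322T replicate 1 was its highest library, while replicate 3 of that group lay among the ApcMin libraries. The log2 fold change of *Sp5* was -0.53 (SE 0.27, interval -1.19 to 0.14, adjusted p = 0.398 with edgeR), and -0.18 without Apc1322T replicate 1. *Cdca7*, a chromatin-associated protein (chromosome 2, 72476159 to 72486893, plus strand), was at 7.11, 6.87 and 6.81 in Apc1322T and at 6.94, 6.55 and 6.92 in ApcMin adenomas. Only ApcMin replicate 2 lay below all Apc1322T libraries for this gene. Its log2 fold change was -0.12 (SE 0.14, interval -0.45 to 0.21, adjusted p = 0.692 with edgeR).

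*Msi1* encodes an RNA-binding protein of stem and progenitor cells (chromosome 5, 115429599 to 115455698, plus strand). Its log2 CPM was 4.69, 4.57 and 4.50 in Apc1322T and 4.74, 4.55 and 4.91 in ApcMin adenomas. *Msi1* had a log2 fold change of 0.15 (SE 0.12, interval -0.14 to 0.44, adjusted p = 0.556 with edgeR). *Prom1*, a membrane glycoprotein of apical protrusions also known as CD133 (chromosome 5, 43993620 to 44102032, minus strand), was the most highly expressed of the 10 genes. Its log2 CPM was 10.31, 9.60 and 9.44 in Apc1322T and 9.86, 9.08 and 9.68 in ApcMin adenomas. Its highest library was Apc1322T replicate 1 and its lowest ApcMin replicate 2. *Prom1* had a log2 fold change of -0.26 (SE 0.29, interval -0.97 to 0.45, adjusted p = 0.679 with edgeR), and 0.06 without Apc1322T replicate 1.

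**Figure D2:**
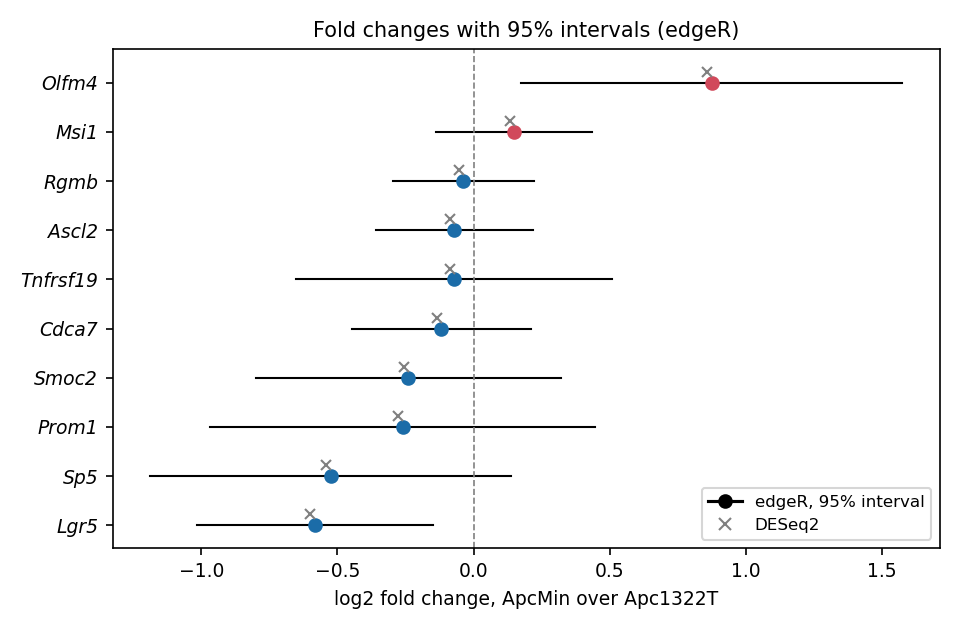
Log2 fold change of ApcMin over Apc1322T adenomas (horizontal axis) for each stem cell gene, as the edgeR estimate with its 95% interval (circles and lines) and the DESeq2 estimate (crosses). The intervals of *Lgr5* (-1.02 to -0.15) and *Olfm4* (0.18 to 1.58) lie clear of 0 before adjustment and the other 8 include it. The split of 2 positive and 8 negative values is that of TMM scaling, and 6 are positive when libraries are scaled by their totals alone.

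As a group, the stem cell genes had a median log2 fold change of -0.09, against 0.02 over all tested genes. Under TMM scaling 2 of the 10 values were positive and 8 negative, where 47.6% of all tested genes were negative. The split was 3 and 7 under upper quartile scaling, and 6 and 4 with library totals alone. Scaling by library totals moved the median of all genes by 0.16, and the median of the 10 genes was then 0.06. Without Apc1322T replicate 1, 5 of the 10 values were positive and 5 negative, and their median was 0.02. *Lgr5*, *Olfm4*, *Msi1* and *Sp5* kept the sign of their difference under all 18 alternatives tried for each. The libraries of the 2 genotypes were without overlap for 0 of the 10 genes, against 21% of all tested genes. With the RLE size factors *Lgr5* was without overlap, and with the upper quartile or library totals it was *Olfm4*.

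Much of the spread lay between libraries of the same genotype. The median SD of the 10 genes was 0.282 log2 units in Apc1322T and 0.229 in ApcMin adenomas, against 0.205 and 0.186 over all tested genes. Apc1322T replicate 1 had the highest level of 8 of the 10 genes, where it was the highest library for 15.2% of all tested genes. *Msi1* and *Olfm4* were the exceptions, and *Olfm4* was at its lowest in that library. ApcMin replicate 2 was the lowest library for 5 of the 10 genes, against 14.4% of all tested genes, and the highest for *Olfm4*.

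**Figure D3:**
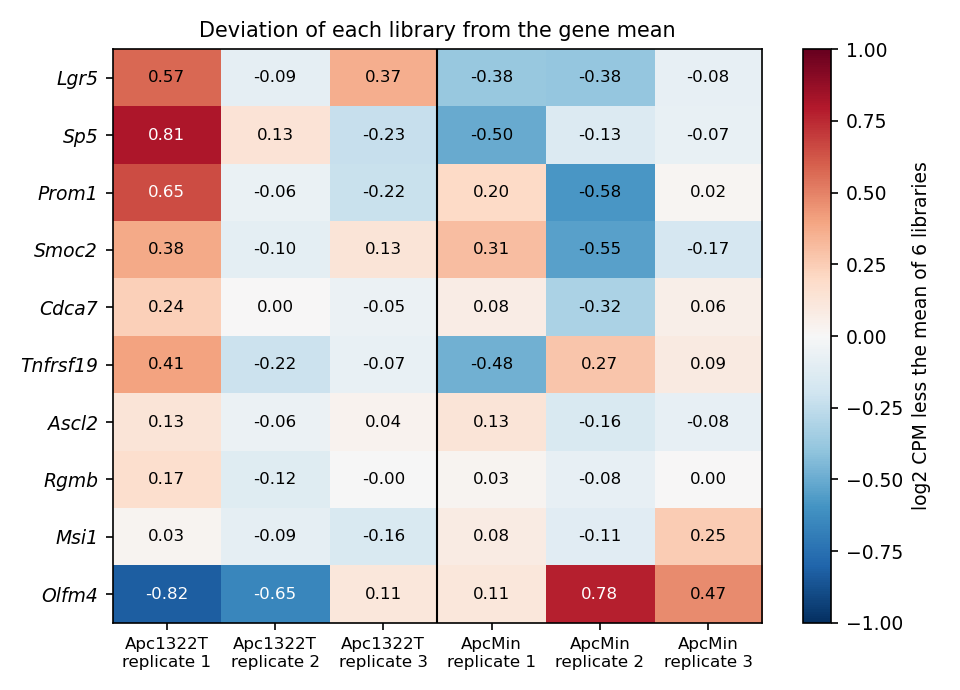
Log2 CPM of each stem cell gene (rows) in each library (columns), less the gene's mean over the 6 libraries, with red above and blue below that mean. The first column, Apc1322T replicate 1, is above the mean for 9 of the 10 genes and below it for *Olfm4*, at -0.82, and ApcMin replicate 2 has the reverse at *Olfm4*, at 0.78.

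*Olfm4* and *Lgr5*, both used as markers of the same cells, were set against each other within each library, a pair chosen after their values were seen. The count of *Olfm4* per count of *Lgr5* was 0.357, 0.635 and 0.790 in Apc1322T replicates 1 to 3 and 1.33, 2.11 and 1.38 in ApcMin replicates 1 to 3. All ApcMin libraries had more counts of *Olfm4* than of *Lgr5* and all Apc1322T libraries had fewer. This description holds whatever the scaling between libraries. *Olfm4* and *Lgr5* had the largest differences of the stem cell genes, in opposite directions, a choice that favours separation of their ratio. The share of other gene pairs that separate in this way was not counted. For comparison, the counts of *Smoc2* per count of *Lgr5* were 1.34, 1.52 and 1.30 in Apc1322T and 2.47, 1.37 and 1.44 in ApcMin adenomas, and those groups overlapped. The counts of *Ascl2* per count of *Lgr5* were 0.133, 0.184 and 0.144 in Apc1322T and 0.257, 0.211 and 0.180 in ApcMin adenomas, where only ApcMin replicate 3 and Apc1322T replicate 2 crossed.

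Levels of different genes were compared as CPM per kilobase of exon sequence, averaged over the 6 libraries. *Prom1* was at 117 CPM per kilobase, followed by *Cdca7* at 36.7, *Sp5* at 34.1, *Olfm4* at 32.7, *Smoc2* at 21.5, *Tnfrsf19* at 13.3, *Ascl2* at 10.6, *Lgr5* at 9.62, *Msi1* at 4.36 and *Rgmb* at 2.78. Neighbours in this order differed beyond the range of their libraries at 3 places, between *Prom1* and *Cdca7*, between *Lgr5* and *Msi1*, and between *Msi1* and *Rgmb*. Beyond neighbours, *Cdca7* lay above *Smoc2*, *Tnfrsf19*, *Ascl2* and *Lgr5* in all libraries, from 29.2 CPM per kilobase upwards, against at most 27.3 for *Smoc2* and 13.8 for *Lgr5*. By group means, the place of *Olfm4* differed between the genotypes. In ApcMin adenomas it was at 42.4 CPM per kilobase on average (SD 9.66), above *Cdca7* at 35.2 (SD 5.19) and *Sp5* at 28.0 (SD 4.33). In Apc1322T adenomas it was at 23.1 (SD 8.53), below *Sp5* at 40.3 (SD 15.2) and *Cdca7* at 38.2 (SD 4.22) and level with *Smoc2* at 23.3 (SD 3.86). This order did not hold in every library. In ApcMin replicate 1 *Olfm4* was at 32.8, below *Cdca7* at 38.4. In Apc1322T replicate 3 it was at 32.9, above *Sp5* at 27.8. With the longest transcript as the length *Lgr5* came to 20.6 CPM per kilobase and rank 6, still below *Cdca7* in all libraries. By that length *Smoc2* came to rank 3 and *Sp5* to rank 5. The ranges of *Smoc2* and *Cdca7* then overlapped, with *Smoc2* up to 47.8 and *Cdca7* from 38.5 CPM per kilobase upwards.

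The genes most like *Lgr5* across the 6 libraries were sought by the root mean square difference of log2 CPM after centring each gene on its mean, over 10549 genes whose range across libraries was at least 50% of that of *Lgr5*. The nearest were *Epb42*, at 0.0593, *Gm6395*, at 0.120, and *Gm5340*, at 0.122. *Epb42* encodes an erythrocyte membrane protein and was at 0.04, -0.53 and -0.14 log2 CPM in Apc1322T and at -0.80, -0.88 and -0.44 in ApcMin adenomas, a low level. Of the stem cell genes, the nearest to *Lgr5* was *Cdca7*, at 0.297, and 4.94% of the 10549 genes were nearer. *Ascl2* and *Rgmb* were nearest to each other among the stem cell genes, at 0.0705. Of the genes compared by the same limit, 1.13% were nearer to *Ascl2* and 2.2% nearer to *Rgmb*. The same limit on the range left 5 of the stem cell genes to be compared with *Olfm4*, of which *Tnfrsf19* was the nearest, at 0.645. Over all genes within that limit 39.3% were nearer to *Olfm4*, so *Tnfrsf19* was not close to it.

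Other genes of the crypt base and its signals were taken from lists made from general knowledge. Of 18 other crypt base columnar cell genes, all tested, 8 were higher and 10 lower in ApcMin adenomas, 3 were at an unadjusted p under 0.05 and 0 passed the threshold in edgeR. Their median log2 fold change was -0.01. With the upper quartile 12 of these 18 genes were higher, with library totals 13, and without Apc1322T replicate 1 12. *Slc14a1*, a urea transporter, was at 1.69, 1.24 and 1.57 log2 CPM in Apc1322T and at 2.48, 3.35 and 3.68 in ApcMin adenomas, with a log2 fold change of 1.76 (SE 0.34). Its adjusted p was 0.257 in edgeR and 0.000342 in DESeq2, where it was the only gene of this list under 0.01. The other genes at an unadjusted p under 0.05 in edgeR were *Nr2e3*, a nuclear receptor with a log2 fold change of -1.48, and *Igfbp4*, an IGF-binding protein with 0.53. *Nr2e3* had few counts, 24, 31 and 29 in Apc1322T and 15, 15 and 9 in ApcMin replicates 1 to 3.

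Of 8 receptors and co-receptors for R-spondins and Wnt, 5 were higher and 3 lower in ApcMin adenomas (6 higher with library totals), with 0 past the threshold and 1 at an unadjusted p under 0.05 in edgeR. This was *Lgr6*, a relative of *Lgr5*, at -0.96, -0.35 and -1.24 log2 CPM in Apc1322T and at 1.00, 1.24 and 0.03 in ApcMin adenomas, with a log2 fold change of 1.77 (SE 0.47, adjusted p = 0.278). Its counts were few, 12, 15 and 8 in Apc1322T and 69, 58 and 30 in ApcMin replicates 1 to 3. *Rnf43*, a ubiquitin ligase that removes Wnt receptors, had a log2 fold change of 0.28, and the co-receptor *Lrp5* of -0.23, neither at an unadjusted p under 0.05. Of 13 niche ligands, 10 were tested, 8 of them higher in ApcMin adenomas (9 with library totals, 7 without Apc1322T replicate 1), and *Rspo1*, *Rspo2* and *Nog* fell below the filter on low counts. *Wnt2b*, a Wnt ligand of stromal cells, had a log2 fold change of 1.00 (SE 0.36, unadjusted p = 0.0283 and adjusted p = 0.308 in edgeR). It too had few counts, 19, 19 and 30 in Apc1322T and 61, 63 and 52 in ApcMin replicates 1 to 3. The log2 fold change of *Grem1*, an antagonist of bone morphogenetic proteins, was 1.04 (SE 0.53), as was that of *Rspo3* (SE 0.54), neither of them at an unadjusted p under 0.05.

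Of 4 genes used as markers of reserve stem cells, 2 were higher and 2 lower in ApcMin adenomas (4 higher with library totals) and 0 were at an unadjusted p under 0.05 in edgeR. Their log2 fold changes lay between -0.15 for *Lrig1* and 0.18 for *Tert*, with *Hopx* at -0.07. Of 6 genes of revival and fetal-like states, 5 were higher in ApcMin adenomas. In edgeR 1 of them was at an unadjusted p under 0.05 and 0 passed the adjusted threshold. *Clu*, a secreted chaperone, and *Ly6a* were at 0.35 and 0.82, neither at an unadjusted p under 0.05. Of 14 proliferation genes, 4 were higher and 10 lower in ApcMin adenomas, with a median of -0.05 and 0 at an unadjusted p under 0.05, while 8 were higher with the upper quartile or without Apc1322T replicate 1, and 12 with library totals. The smallest unadjusted p of these, in edgeR, was that of *Birc5*, an inhibitor of apoptosis, at 0.0506 with a log2 fold change of -0.23, followed by *Mcm4* at -0.14 and *Cdk1* at 0.10.

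The markers of other cells in the excised tissue had values that differed between the genotypes, in a direction that depended on the list. All 8 epithelial markers had lower values in ApcMin adenomas (7 of 8 with library totals), with a median log2 fold change of -0.37 and 5 at an unadjusted p under 0.05, led by *Epcam*, *Cdh1* and *Cldn7* at -0.39, -0.32 and -0.42. Their summed level was 14630 to 18000 CPM in Apc1322T and 11900 to 14000 CPM in ApcMin libraries. All 9 enterocyte markers also had lower values (median -0.90, 2 at an unadjusted p under 0.05), with *Fabp1* at -1.32 and *Apoa4* at -0.90, and sums of 16220 to 28390 and 9729 to 20290 CPM. All 7 goblet cell markers had lower values (median -0.54, 4 at an unadjusted p under 0.05), with *Agr2* at -0.72, *Fcgbp* at -0.74 and *Zg16* at -0.69, and sums of 5990 to 9174 and 4065 to 5978 CPM. None of these passed the edgeR threshold. In DESeq2 *Agr2* did, with an adjusted p of 0.00203.

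Of 10 Paneth cell markers, cells that sit between the stem cells and feed them signals, 8 had higher values in ApcMin adenomas (9 with library totals, median 0.59 under TMM), and *Mptx2* at 0.96 and *Lyz1* at 0.61 were at an unadjusted p under 0.05. *Defa22*, whose reads are shared with near-identical defensin genes, was at 1.63. The Paneth sums were 1680 to 2826 CPM in Apc1322T and 2670 to 3109 CPM in ApcMin libraries. Of 9 enteroendocrine markers 4 were higher and 5 lower (5 and 4 with library totals), with *Neurog3* at 1.52, *Tac1* at 0.63 and *Cck* at -0.45, and sums of 72.9 to 132 and 85.4 to 108 CPM. At an unadjusted p under 0.05 in edgeR were *Neurog3* and *Tac1*. *Neurog3* had few counts, 6, 6 and 7 in Apc1322T and 48, 12 and 16 in ApcMin replicates 1 to 3. All 5 tested tuft cell markers had higher values (median 0.57), with *Pou2f3* at 1.52, *Alox5ap* at 0.73 and *Dclk1* at 0.57, sums of 166 to 263 and 209 to 251 CPM, and 0 at an unadjusted p under 0.05. *Pou2f3* had few counts, 7, 9 and 42 in Apc1322T and 48, 75 and 94 in ApcMin replicates 1 to 3.

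Stromal markers had higher values in ApcMin adenomas throughout their fibroblast, smooth muscle and endothelial lists, under each scaling and without Apc1322T replicate 1. The 8 fibroblast markers had a median of 0.92 and sums of 692 to 1685 CPM in Apc1322T and 1113 to 3524 CPM in ApcMin libraries, with *Pdgfra* at 1.00, *Lum* at 1.58 and *Dcn* at 0.72. The 6 smooth muscle markers had a median of 0.69 and sums of 127 to 255 and 276 to 402 CPM, with *Tagln* at 0.63, *Acta2* at 0.59 and *Myh11* at 0.88. The 5 endothelial markers had a median of 0.71 and sums of 92.9 to 153 and 148 to 225 CPM, with *Cdh5* at 1.38, *Vwf* at 0.77 and *Tek* at 0.71. Of 9 leukocyte markers tested 7 were higher (median 0.49, sums of 416 to 549 and 335 to 978 CPM), with *Csf1r* at 0.64, *Adgre1* at 1.03 and *Ptprc* at 0.55. Of 3 markers of enteric glia and neurons tested, 2 were higher, *Uchl1* among them at 0.62, and *S100b* was at -0.04 (above 0 with the upper quartile or library totals), with sums of 7.27 to 8.88 and 9.80 to 12.1 CPM. At an unadjusted p under 0.05 in edgeR there were 2 fibroblast, 2 smooth muscle, 1 endothelial and 2 leukocyte markers, and none of these stromal and blood cell markers passed the adjusted threshold. In DESeq2 *Pdgfra* and *Cdh5* did, with adjusted p of 0.00656 and 0.00676. No marker of these lists was at 0 in all libraries. Fewer cells of a type and less RNA per cell cannot be told apart in such bulk samples, and the part of cell makeup in the values of the stem cell genes was not tested.

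**Figure D4:**
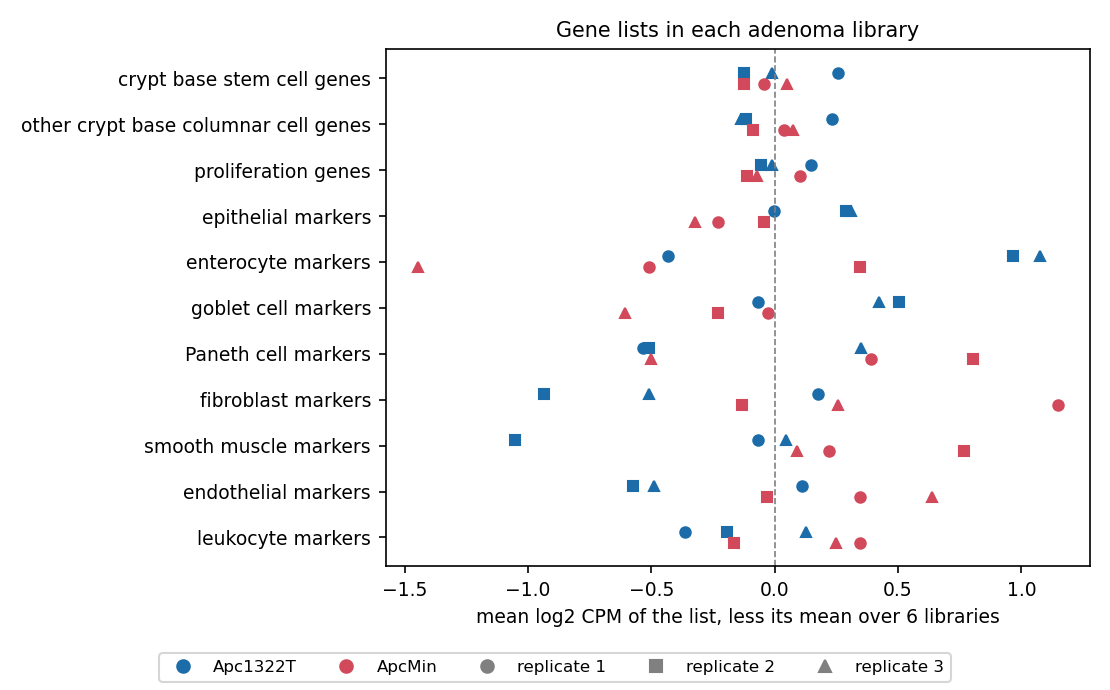
Mean log2 CPM of each gene list in each library, less the list's mean over the 6 libraries (horizontal axis), for 3 Apc1322T (blue) and 3 ApcMin (red) libraries, with a symbol for each replicate number. The 2 genotypes are interleaved for the stem cell genes (first row), where Apc1322T replicate 1 is the highest. For the epithelial markers all 3 ApcMin libraries lie below the Apc1322T libraries under TMM scaling, by a narrow margin. The mean log2 CPM of these markers is 10.55 in ApcMin replicate 2 and 10.59 in Apc1322T replicate 1.

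Set against the mean of the 8 epithelial markers of the same library, 8 of the 10 stem cell genes had higher and 2 lower values in ApcMin adenomas, with a median difference of 0.30 log2 units. This scale raises all genes, since the mean of these markers differed by -0.399 (ApcMin less Apc1322T), and the median difference over all tested genes was 0.415, with 90.2% of them higher. Of the 10 stem cell genes, 2 lay above that median, *Olfm4* and *Msi1*. The difference was -0.17 for *Lgr5* and -0.07 for *Sp5*, the 2 genes with lower values. *Olfm4* was at -4.93, -5.04 and -4.30 relative to these markers in Apc1322T adenomas and at -3.76, -3.28 and -3.30 in ApcMin adenomas. These libraries did not overlap, with a difference of 1.31 (exact permutation p = 0.10, two-sided, the smallest that this design allows). The share of all tested genes without overlap on this scale was not counted, so the separation has no background to be read against. On log2 CPM alone the *Olfm4* libraries crossed, with an exact permutation p of 0.20 (two-sided). *Krt20* and *Vil1* mark differentiated epithelium, and without them the differences were -0.26 for *Lgr5*, -0.17 for *Sp5* and 1.21 for *Olfm4*, with a median of 0.20 over the 10 genes and of 0.317 over all tested genes.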

How the data were processed

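RNA-seq was analysed for adenomas of 3 Apc1322T and 3 ApcMin mice, grouped by the labels, where nothing says that replicate numbers mark a shared litter or day. The authors made strand-specific libraries, mapped the reads to the transcriptome of GRCm38 with Salmon, and deposited its estimated counts for each gene, not normalised, of which 31.1% are not whole numbers (tolerance 0.001). Salmon divides reads that fit several transcripts, and the estimated counts of *Lgr5* and *Prom1* were fractional in all 6 libraries. *Prom1* and *Olfm4* are overlapped by a non-coding gene on the same strand. By the submitters' processing notes DESeq2 was used in the study.

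The estimated counts were rounded. Symbols came from GENCODE M21 for 34582 of 34866 genes, and 284 had none. Genes were kept with filterByExpr (minimum count 10, minimum total 15), scaled by TMM, and tested in edgeR 4.0.16 (R 4.3.3) by a robust quasi-likelihood fit, without a replicate term, with Benjamini-Hochberg adjustment over all 16536 tested genes at a threshold of 0.01. Standard errors came from the fold change and its F statistic, and log2 CPM used a prior count of 2. Genes were compared with *Lgr5* only if their range was 50% of its range or more. The procedure was tested on simulated counts with changes larger than those of the stem cell genes. That test therefore does not show whether differences of their size would be found. At these depths 3 counts came to between 0.0895 and 0.130 CPM, a limit for counting error only. DESeq2 1.42.0 and limma-voom (limma 3.58.1), other scalings and filters, and each library left out were the alternatives.

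The 10 genes, the gene lists and the tests were chosen with earlier results of these data known. The genes named were the 10, *Apc*, the 3 with the smallest unadjusted p in each other list, and the 3 nearest to *Lgr5*. Of the genes this rule gives, 3 are not reported here. *Krt20* and *Vil1* were named after values were seen, as was the ratio of *Olfm4* to *Lgr5*.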

Additional observations from a re-analysis of the deposited data

How the results depend on the processing

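With 3 libraries per genotype the spread between libraries, counting error included, limits these comparisons. The p-values weigh a difference only against that spread, which the fits estimate with information from other genes. None of the 10 stem cell genes passed the adjusted threshold under any alternative run. Over all genes the count past the threshold of 0 became 194 with DESeq2, 1 without a filter on low counts, 1 at an adjusted p under 0.05, and 0 to 1 with single libraries left out, and the 2495 genes at an unadjusted p under 0.05 became 1180 to 4117. The 2 stem cell genes at an unadjusted p under 0.05 became 1 with library totals alone, against 2942 of all 16536 tested genes. With single libraries left out they became 0 to 3, against the 1180 to 4117 of all genes given above. The stem cell genes without overlap became 1 with RLE size factors, 1 with the upper quartile, 1 with library totals, and 0 to 3 with single libraries left out. The share of all tested genes was 21.1%, 20.9% and 24.6% with these scalings and 25.1% to 48.0% with single libraries left out. *Lgr5* was without overlap when Apc1322T replicate 2 or ApcMin replicate 3 was left out, *Olfm4* and *Sp5* without Apc1322T replicate 3, *Ascl2*, *Smoc2* and *Olfm4* without ApcMin replicate 1, and *Msi1* without ApcMin replicate 2.

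The differences of 6 other genes, all within their error in the main comparison, changed sign, and the cause was not tested. With library totals the values were 0.087 for *Ascl2*, 0.074 for *Tnfrsf19*, 0.037 for *Cdca7* and 0.12 for *Rgmb*, and *Rgmb* was at 0.018 with the upper quartile. With single libraries left out, values ranged from -0.24 to 0.14 for *Tnfrsf19*, from -0.43 to 0.058 for *Prom1* and from -0.10 to 0.048 for *Rgmb*. Without a change of sign they ranged from -0.16 to -0.01 for *Ascl2*, from -0.19 to -0.0012 for *Cdca7* and from 0.06 to 0.24 for *Msi1*. Relative to the epithelial markers, a scale on which the median of all tested genes was 0.415, they were 0.33 for *Ascl2*, 0.13 for *Smoc2*, 0.32 for *Tnfrsf19*, 0.15 for *Prom1*, 0.28 for *Cdca7* and 0.37 for *Rgmb*. Without *Krt20* and *Vil1*, added after seeing the data, they were 0.23, 0.031, 0.22, 0.055, 0.18 and 0.27.

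Same-numbered libraries had correlations of -0.01, 0.16 and -0.29, and differently numbered ones of -0.36 to 0.33. These correlations, of deviations from group means of 3 libraries, cannot decide whether the numbers mark pairs. The labels do not say that they do, so the numbers were not taken to pair libraries. With the replicate block, 2113 genes were at an unadjusted p under 0.05 and 2 of the stem cell genes were among them, with *Lgr5* at -0.57 and *Olfm4* at 0.91.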
